A study of Mus musculus with 2 samples.

Results

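Transcripts of 7 cytokine genes, Tnf, Osm, Il6, Il10, Lif, Tnfsf9 and Tnfsf14, were examined in colonic polyp-infiltrating myeloid cells, out of 32285 genes counted. They were chosen by name as a set of cytokines, with earlier results of these data known. All 7 had at least 100 unique molecular identifiers (UMIs, tags that mark single transcript copies) over both libraries, as did 8470 genes in all. The cells were CD11b+ and CD11c+ cells sorted from colorectal polyps of C57BL6/J mice given azoxymethane (AOM), a carcinogen, and 3 cycles of 1% dextran sodium sulfate (DSS), which injures the colon lining. Wild-type (WT) mice gave 1 library and Clec7a-/- (KO) mice, which lack the β-glucan receptor Dectin-1 in all cells, gave 1 library, each pooled from several mice that the labels give as 26 weeks old. With 1 library per genotype the genotypes were compared by size with no test. Every interval below is a 95% interval for counting error only, which leaves out the spread between mice and between library preparations. Intervals of CPM and of ratios treat UMIs as independent, so they also leave out the spread between cells of a library. A difference beyond counting error can therefore rest on few cells. Clec7a itself was not analysed here, so the genotype labels were not checked against it.

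Tnf encodes tumour necrosis factor, a trimer made at the cell surface and released by Adam17, which acts through Tnfrsf1a and Tnfrsf1b. Tnfsf9 (4-1BB ligand) and Tnfsf14 (LIGHT) belong to the same ligand superfamily and act on Tnfrsf9 and on Tnfrsf14 and Ltbr. Il6, Osm and Lif encode helical cytokines that signal through the shared chain Il6st (gp130) to Stat3, and Osm and Lif are neighbouring genes. Il10 encodes a cytokine that signals through Il10ra and Il10rb and restrains myeloid activation in the gut. In inflamed colon and in colitis-linked tumours, myeloid cells are a known source of most of these factors.

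The genes lie on 4 chromosomes of GRCm38 (GENCODE M21). Tnf is at chr17:35199381-35202007 on the minus strand, Tnfsf9 at chr17:57105325-57107757 on the plus strand and Tnfsf14 at chr17:57189492-57194177 on the minus strand. Osm (chr11:4236420-4241026) and Lif (chr11:4257557-4272514) are both on the plus strand with 16530 bases between them. Il6 is at chr5:30013114-30019981 and Il10 at chr1:131019845-131024974, both on the plus strand. The start of Tnfsf9 overlaps a noncoding gene on the other strand, and whether the counting used strand is not given in the sources used here.

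The upstream sequences of Tnf and Il6 are shown because these genes were highest in different cells of the same polyps (below). They are the 250 bases before the RefSeq start of each gene in GRCm38.p6, 5′ to 3′ on the gene's strand, at chr17:35202008-35202257 (minus) and chr5:30012864-30013113 (plus). RefSeq promoters were matched for 4 of the 7 genes, Tnf, Il6, Lif and Tnfsf14. Capitals mark matches to 3 motifs searched on both strands, a TATA box (TATAAA), an AP-1 site (TGACTCA) and a κB-type site, whose letters are those capitalised toward the end of the Il6 sequence with any base allowed at its 2 places after GGG. No motif overlaps another in these windows, and the AP-1 match of Il6 is on the minus strand.
Tnf: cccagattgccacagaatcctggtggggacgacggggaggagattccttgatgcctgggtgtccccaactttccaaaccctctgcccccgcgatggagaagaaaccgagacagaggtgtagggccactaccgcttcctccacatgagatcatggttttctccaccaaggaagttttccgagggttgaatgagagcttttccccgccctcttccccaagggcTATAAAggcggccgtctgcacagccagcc
Il6: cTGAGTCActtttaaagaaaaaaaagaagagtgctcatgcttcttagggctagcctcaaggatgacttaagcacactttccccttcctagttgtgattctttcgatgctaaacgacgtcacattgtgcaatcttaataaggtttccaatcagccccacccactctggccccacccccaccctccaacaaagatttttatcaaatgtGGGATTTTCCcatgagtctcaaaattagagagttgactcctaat
The Tnf window held TATAAA beginning 29 bases before the start. The Il6 window held the κB-type letters, beginning 44 bases before the start, and the AP-1 letters, which also stood in the windows of Lif and Tnfsf14. Of 32851 such windows, 1.41% held the κB-type letters, 12.4% TATAAA and 4.46% the AP-1 letters. These matches describe the letters only.

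The filter of the methods kept 2696 WT and 1999 KO cells with 12283285 and 7559096 UMIs and medians of 3412.5 and 2671 UMIs per cell. Itgam (CD11b) had a UMI in 63.7% of WT and 42.8% of KO cells and Itgax (CD11c) in 68.4% and 57.5%, and small clusters with markers of T cells, of mast cells, of epithelium and of B cells were present as well. Between the libraries, 17 barcode sequences were shared, 6 of them among the cells kept. Clustering without the cytokine genes gave 15 clusters, numbered from 0 by size, and 12 of them carried markers of a single cell class. Clusters 1 (492 WT and 86 KO cells) and 4 (182 and 317) both had neutrophil markers, but cluster 4 had a median of 973 UMIs and none of those markers among its 10 leading genes and was left unnamed. Cluster 6 (273 and 60), with neutrophil and monocyte markers together, and cluster 11 (13 and 21), led by proliferation genes, were also unnamed. The monocyte-like class joins 2 unlike clusters. Cluster 2 (315 and 225) had 7 of 8 monocyte markers. Cluster 0 (420 and 275) had 2 of them and was named by 4 of 6 markers of cells in transition from monocyte to macrophage. Doublets were not removed, and Scrublet marked 0.111% and 0.35% of cells, too few to have worked.

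Over all cells Tnf had 3413 UMIs or 278 CPM (its UMIs per 1000000 UMIs of the same cells) in the WT library and 815 UMIs or 108 CPM in the KO library, a log2 ratio of KO to WT of -1.37 (-1.48 to -1.26). Osm, a gp130 cytokine, was at 394 and 238 CPM, a log2 ratio of -0.72 (-0.80 to -0.65). Il10 was at 66.3 and 32.1 CPM (-1.04, -1.26 to -0.84) and Tnfsf14 at 21.6 and 10.6 CPM (-1.03, -1.41 to -0.66). These 4 genes were lower in the KO library, and Tnf and Osm were the highest of the 7 genes in both. The labels' protocol names a 3′ library kit, by which levels of different genes do not depend on their length, while another label names 10x Genomics.

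Il6 went the other way, with 26.7 CPM in the WT and 50.9 CPM in the KO library, a log2 ratio of 0.93 (0.72 to 1.15). Tnfsf9, a T-cell costimulatory ligand, was at 39.4 and 70.2 CPM (0.83, 0.65 to 1.01). Lif was at 15.7 and 14.8 CPM, and its log2 ratio of -0.08 had an interval of -0.43 to 0.26. By a 2-fold rule 3 of 7 cytokine genes were lower (Tnf, Il10 and Tnfsf14) and none higher, while of 8470 genes 1.71% were lower and 2.42% higher. With a pseudocount of 5 UMIs 2 of the 7 were lower, and Il10 was at -0.43 without the 10 cells of each library with the most Il10. The median log2 ratio was -0.72 over the 7 cytokine genes and 0.13 over all 8470 genes.

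The libraries differed in their cells, so each gene was also compared cluster by cluster, and with the clusters weighted alike in both libraries (the standardised ratio). Clusters 1 and 4 together held 25% of WT and 20.2% of KO cells, cluster 6 held 10.1% and 3.0%, and DC-like clusters held 13.3% and 27.9%. After standardising, the log2 ratio was -0.77 (-0.90 to -0.64) for Tnf and -0.79 (-1.02 to -0.57) for Il10. For Osm it was -0.08 (-0.16 to 0.01), for Il6 0.26 (0.04 to 0.49) and for Tnfsf9 0.10 (-0.09 to 0.29). For Lif and Tnfsf14 it was -0.02 (-0.38 to 0.34) and -0.27 (-0.70 to 0.16). The standardised differences of Tnf, Il10 and Il6 thus had intervals that left out 0, that of Il6 narrowly. The Il10 difference rested in part on few cells (below). The standardised differences of Osm, Tnfsf9 and Tnfsf14 had intervals that included 0 once cluster weights were equal. For Osm, clusters that differed in opposite directions entered that value (below).

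**Figure D1:**
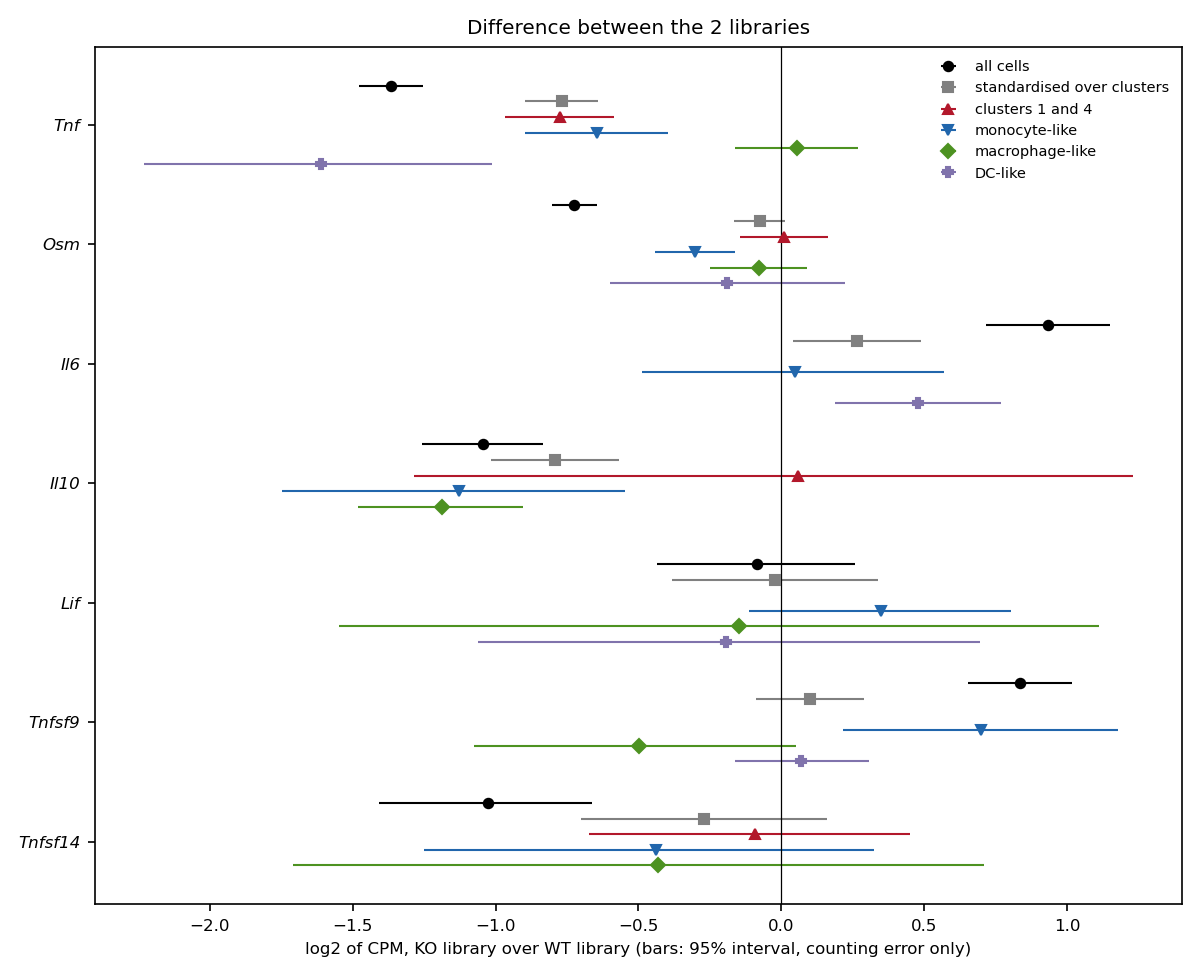
Log2 ratio of CPM, KO over WT library, for each cytokine gene over all cells (circles), standardised over 15 clusters (squares) and within 4 groups of clusters, with 95% intervals for counting error. Groups with fewer than 20 UMIs of the gene are not drawn. Tnf moved from -1.37 over all cells to -0.77 standardised, and Osm from -0.72 to -0.08.

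Tnf was highest in the clusters with neutrophil markers, lower in monocyte-like and macrophage-like cells, and low in type 1 DC-like cells (4.9 and 6.54 CPM). Among WT cells of cluster 4 it was higher in a part with few of the neutrophil markers (below). In clusters 1 and 4 together it was at 951 CPM (906 to 998) in the WT and 556 CPM (491 to 627) in the KO library, a log2 ratio of -0.77 (-0.97 to -0.59). Shares of cells were taken at a common depth of 1000 UMIs, which leaves out shallower cells. Of the deeper cells there, 47.6% in the WT (43.5 to 51.7) and 36.1% in the KO library (29.7 to 42.9) had a Tnf UMI. Of DC-like cells 2.41% and 0.951% had one. Clusters 1 and 4 gave 48.4% of WT and 32.5% of KO Tnf UMIs. Most of those cells were in cluster 1 in the WT and in cluster 4 in the KO library, and Tnf was lower in each. It was at 828 and 501 CPM in cluster 1 (-0.73, -1.07 to -0.40) and at 1736 and 583 CPM in cluster 4 (-1.57, -1.83 to -1.32).

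In monocyte-like cells Tnf was at 177 and 113 CPM, a log2 ratio of -0.64 (-0.90 to -0.40), and it was lower in both of their clusters. In cluster 6 it was at 507 and 234 CPM (-1.12, -1.62 to -0.65). In macrophage-like cells it was at 127 (116 to 138) and 132 CPM (116 to 149), a log2 ratio of 0.05 with an interval of -0.16 to 0.27, so the difference seen elsewhere was not seen there. Of 15 clusters Tnf was lower beyond counting error in 8 and higher in none. Among DC-like cells, which present antigen to T cells, it was at 39.3 and 12.9 CPM (-1.61, -2.23 to -1.01). A single WT cell of cluster 5 carried much of that difference, since without the 10 cells of each library with the most Tnf the DC-like ratio was -0.50 (-1.22 to 0.23), and with a mitochondrial limit of 10% it was -0.21 (-0.91 to 0.51).

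Cluster 4 was not uniform. With 18 clusters instead of 15 it came apart into a part of 51 WT and 278 KO cells with 8 neutrophil markers and a part of 131 WT and 39 KO cells with 3. Tnf was lower in the KO library in both, at 1145 and 569 CPM in the part with 8 markers (log2 ratio -1.01, -1.37 to -0.64) and at 2126 and 697 CPM in the other (-1.61, -2.27 to -1.01). The part with 3 of 12 markers fell below the 50% needed for a class name. Its S100a8 and S100a9 were at 3182 and 2381 CPM in WT and 1626 and 2788 CPM in KO cells. T-cell-like cells were at 1388 and 2142 CPM in the WT and 283 and 708 CPM in the KO library. Cluster 1 was at 13169 and 19469 CPM and at 11703 and 17920 CPM. Whether the cells of this part are neutrophils was not tested. The 12 neutrophil markers summed to 15061 CPM in WT and 24905 CPM in KO cells of cluster 4, and to 50227 and 45249 CPM in cluster 1. All 12 were detected in each, but also in DC-like cells of both libraries, where they summed to 1984 and 1223 CPM. Detection alone therefore does not mark neutrophils. The part of these marker differences in the Tnf and Osm results was not tested.

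Neutrophil transcripts were also counted in cells of other classes. S100a8 and S100a9 stood in T-cell-like cells at 11.6% and 12.3% of their level in clusters 1 and 4 in the WT library, and at 3.85% and 5.61% in the KO library. Tnf in T-cell-like cells was at 85.7 and 45.8 CPM, which was 9.01% and 8.24% of its level in clusters 1 and 4. The WT share, from 15 UMIs, was not above that of S100a8 and S100a9. The KO share was above theirs but came from 11 UMIs. Whether the Tnf UMIs of T-cell-like cells are background was not tested. Osm in T-cell-like cells stood at 15.1% and 12.3% of its level in clusters 1 and 4.

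**Figure D2:**
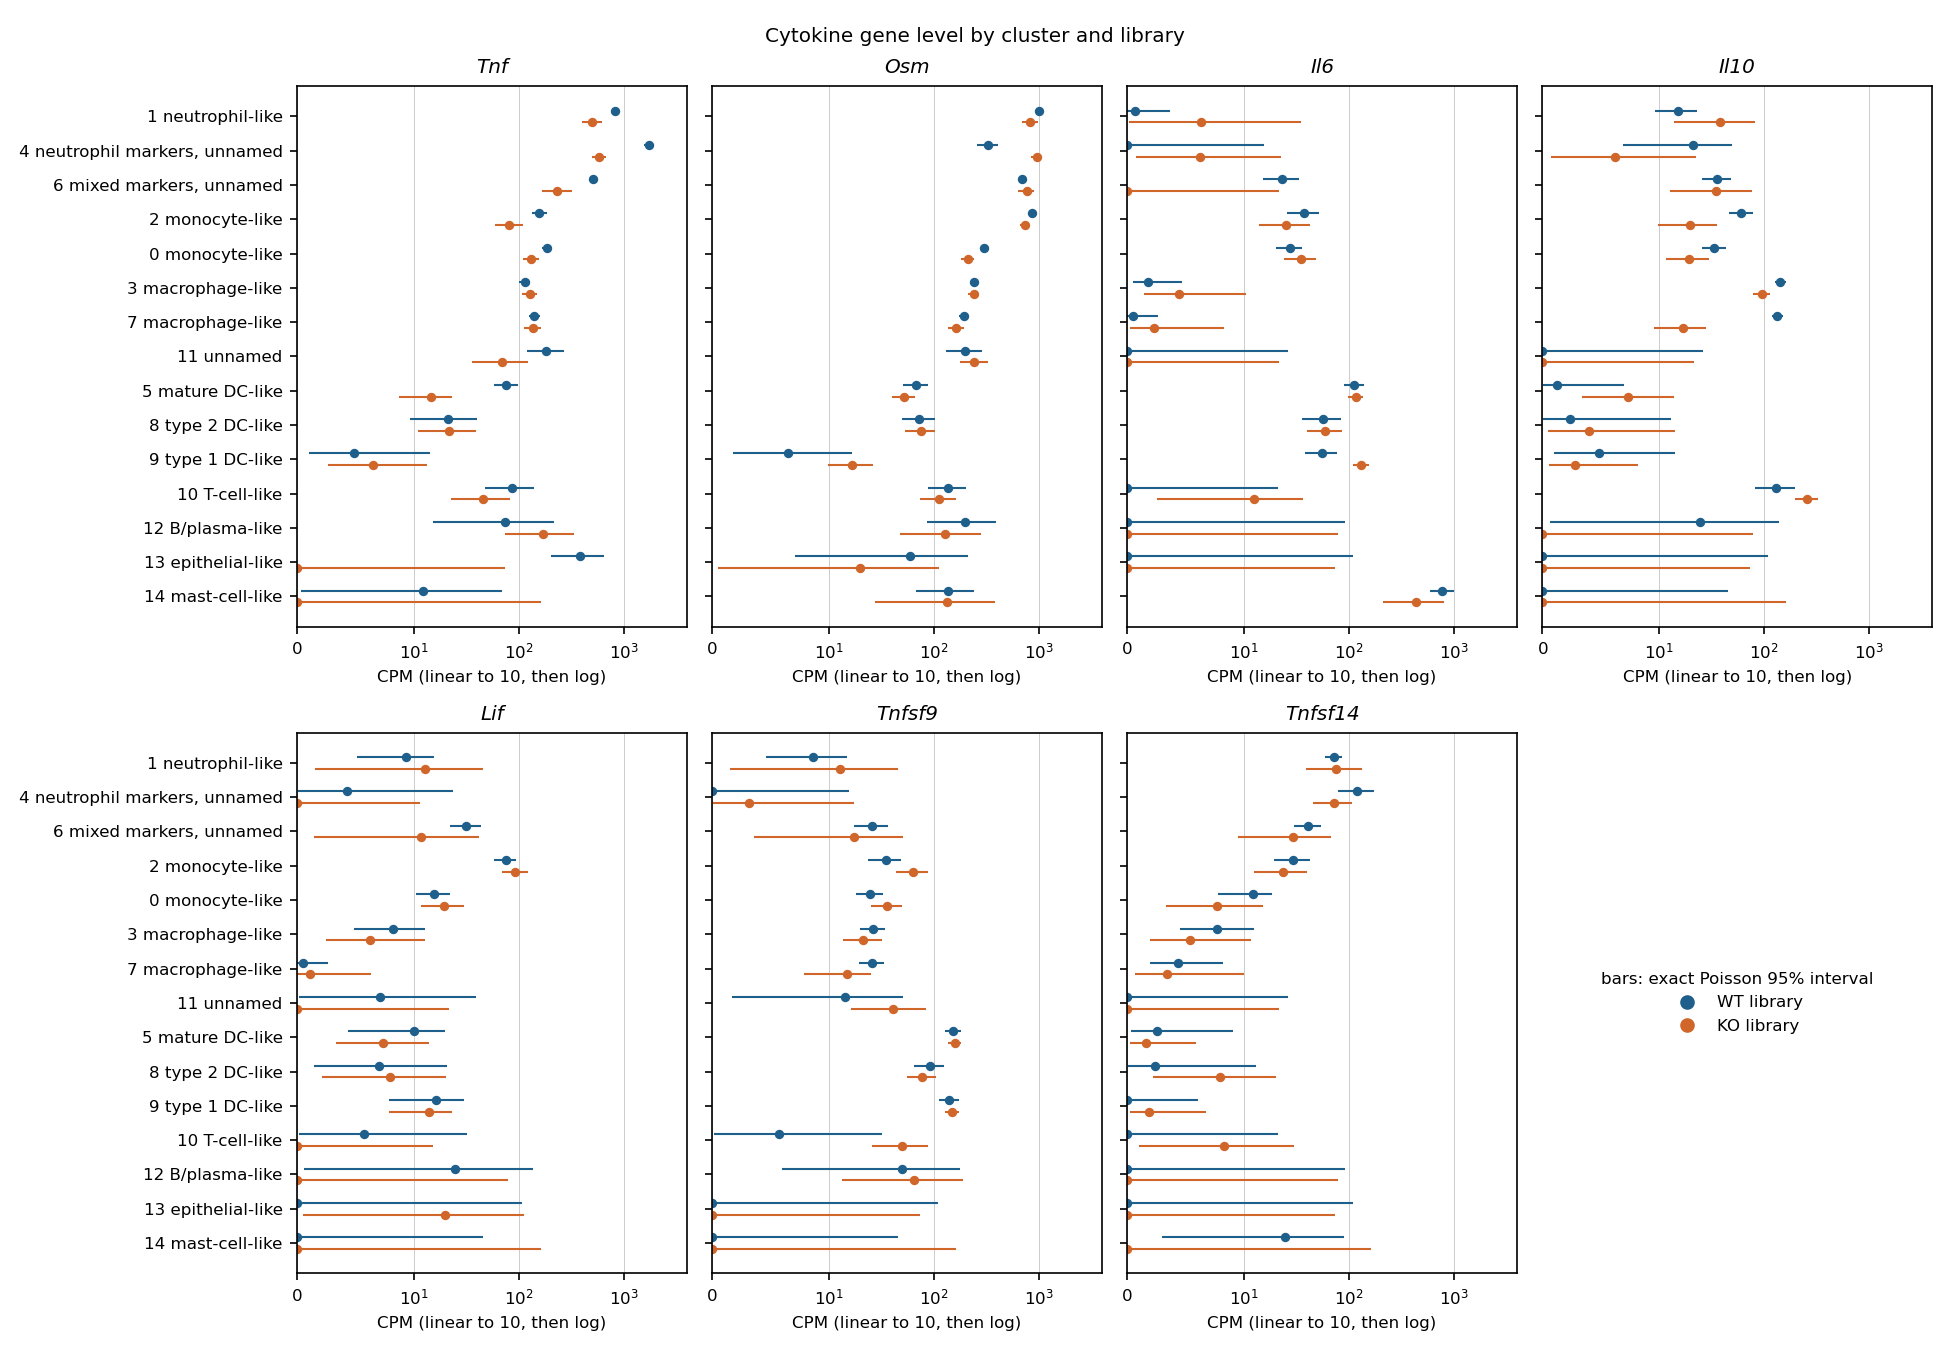
CPM of each cytokine gene (horizontal axis, linear to 10 and then log) in each cluster (vertical axis) of the WT and KO libraries, with exact Poisson 95% intervals. Tnf, Osm and Tnfsf14 were highest in clusters with neutrophil markers. In the WT library, however, Osm was lower in cluster 4 (328 CPM) than in monocyte-like cluster 2 (858 CPM). Il6 and Tnfsf9 were highest in DC-like clusters and, for Il6, mast-cell-like cells. Il10 was highest in macrophage-like and T-cell-like cells, and Lif in cluster 2.

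Tnfsf14, a ligand of the lymphotoxin receptor, followed Tnf across cell classes at a lower level. It was at 78.3 CPM (65.7 to 92.7) in WT and 73.4 CPM (51.1 to 102) in KO cells of clusters 1 and 4, which gave 51.3% and 43.8% of its UMIs. The log2 ratio there was -0.09 (-0.67 to 0.45), and no single cluster differed beyond counting error. In DC-like cells 3 WT and 8 KO UMIs were found. Most positive cells carried a single UMI (80.8% and 93.2%), so the depth limits what can be said of its spread between cells.

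Tnfsf9 had the opposite distribution. DC-like cells were at 134 CPM (118 to 152) in the WT and 141 CPM (127 to 156) in the KO library and gave 50.8% and 74.2% of its UMIs, whereas clusters 1 and 4 had 13 and 3 UMIs. The 3 DC-like clusters were at 153 and 159 CPM (cluster 5, mature), 141 and 150 CPM (cluster 9, type 1) and 91.4 and 77.6 CPM (cluster 8, type 2), with log2 ratios whose intervals all included 0. The intervals of clusters 5 and 9 overlapped in both libraries, and those of cluster 8 lay below cluster 5. In monocyte-like cluster 2 Tnfsf9 was at 34.9 and 63.4 CPM (0.86, 0.13 to 1.60). Without the 1 KO cell there that was among the 10 highest of its library the ratio was 0.64 (-0.12 to 1.41). In T-cell-like cells 1 WT UMI and 12 KO UMIs were counted, 5.71 and 49.9 CPM.

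Osm was lower in the KO library in clusters 0, 1 and 2 and higher in cluster 4, each beyond counting error. It was at 908 CPM (863 to 954) in WT and 914 CPM (831 to 1004) in KO cells of clusters 1 and 4, a log2 ratio of 0.01 (-0.15 to 0.16). Within them it was lower in cluster 1 (998 and 830 CPM, -0.27, -0.53 to -0.01) and higher in cluster 4 (328 and 956 CPM, 1.54, 1.18 to 1.92). In cluster 4 at 1000 UMIs, 23.4% of WT cells (15.7 to 32.5) and 49.6% of KO cells (40.8 to 58.4) had an Osm UMI. In DC-like cells 4.82% and 5.7% had one. Shallower cells are left out of these shares, and the medians of cluster 4 were 1129.5 UMIs in WT and 910 UMIs in KO cells. Tnf and Osm thus moved in opposite directions between the libraries in this cluster. In its part with 8 neutrophil markers Osm was at 417 and 1044 CPM (1.32, 0.84 to 1.84), and in the other part at 269 and 232 CPM (-0.21, -1.52 to 0.91).

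Monocyte-like cells were the other large source of Osm, with 486 and 394 CPM (-0.30, -0.44 to -0.16) and 28.0% and 34.7% of its UMIs. Cluster 2, marked by Ly6c2, Chil3 and Vcan, was at 858 and 739 CPM, below cluster 1 in the WT library and with an interval that overlapped it in the KO library. Cluster 0, marked by Mmp19 and Sdc1, was at 303 and 210 CPM. Macrophage-like cells were at 218 and 206 CPM (-0.08, -0.25 to 0.09) and DC-like cells at 48.6 and 42.6 CPM (-0.19, -0.60 to 0.22). Among these pooled groups the order of levels was clusters with neutrophil markers, monocyte-like, macrophage-like and DC-like cells in both libraries, with no overlap of the intervals between neighbours. Single clusters did not all keep this order. Cluster 4 was at 328 CPM in the WT library, below monocyte-like cells. In the KO library cluster 0 was at 210 CPM and macrophage-like cluster 3 at 239 CPM.

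Lif, which shares the gp130 chain with Osm and lies next to it, had its highest level in cluster 2. There it was at 75.2 CPM (58.5 to 95.1) in the WT and 92.3 CPM (68.7 to 121) in the KO library (0.30, -0.26 to 0.84), and this cluster gave 35.8% and 45.5% of its UMIs. Cluster 6 was at 31.5 and 11.7 CPM from 37 and 2 UMIs, and DC-like cells gave 10.9% and 25% of Lif UMIs. Cluster 0 was at 15.5 and 19.3 CPM, and clusters 1 and 4 together at 8.64 and 4.19 CPM from 15 and 2 UMIs. No cluster differed between the libraries beyond counting error. Across cells, 80.0% of WT and 75.9% of KO positive cells had a single Lif UMI.

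Il6 had its highest levels in mast-cell-like and DC-like cells, was lower in monocyte-like cells and cluster 6, and had few UMIs in clusters 1 and 4 and in macrophage-like cells. DC-like cells were at 80.2 CPM (67.8 to 94.3) in the WT and 112 CPM (99.6 to 125) in the KO library, a log2 ratio of 0.48 (0.19 to 0.77). They gave 44.8% of WT and 81.0% of KO Il6 UMIs while making up 13.3% and 27.9% of cells. Clusters 1 and 4 had 1 and 3 UMIs, and macrophage-like cells 5 and 7. Monocyte-like cells were at 30.5 and 31.5 CPM (0.05, -0.49 to 0.57) and gave 25.9% and 13% of Il6 UMIs, and cluster 6 had 27 WT UMIs and 0 KO UMIs.

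The difference among DC-like cells was in the type 1 cluster 9, marked by Xcr1 and Clec9a, at 55.6 CPM (38.5 to 77.6) and 131 CPM (110 to 154), a log2 ratio of 1.23 (0.69 to 1.82). Mature DC-like cells of cluster 5, marked by Fscn1 and Il12b, were at 112 and 116 CPM (0.05, -0.34 to 0.45) and type 2 DC-like cells of cluster 8 at 56.2 and 59.7 CPM (0.09, -0.74 to 0.92). Of the 10 KO cells with the most Il6, 6 were in cluster 9. Without the 10 highest cells of each library cluster 9 was at 38.2 and 81.3 CPM (1.09, 0.41 to 1.83). At 1000 UMIs 3.61% of WT cells (0.752 to 10.2) and 4.61% of KO cells (1.87 to 9.26) of cluster 9 had an Il6 UMI, while none of 597 WT and 216 KO cells of clusters 1 and 4 had one, which by a limit of 3 cells allows shares of up to 0.503% and 1.39%. At full depth 1 WT and 3 KO cells there had an Il6 UMI. A difference in the share of cluster 9 cells was not detectable at this depth. Il6 was higher per UMI in the KO library in cluster 9, and the interval of the log2 ratio included 0 in clusters 5 and 8.

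Mast-cell-like cells had the highest level of Il6 of any cluster, at 779 CPM (599 to 997) from 63 UMIs in 16 WT cells and 441 CPM (212 to 812) from 10 UMIs in 5 KO cells. A UMI was found in 68.8% of the WT and 40% of the KO cells. They gave 19.2% of WT and 2.6% of KO Il6 UMIs. All 8 mast cell markers were higher there than in the other clusters. So were 4 basophil markers, and mast cells and basophils were not separated under this class name. The log2 ratio of -0.82 had an interval of -1.95 to 0.15. Without the 3 WT cells that were among the 10 highest of the library, the WT level was 327 CPM from 18 UMIs and the ratio was 0.43 (-0.84 to 1.63). No KO cell was left out here, so this ratio shows how much the WT level rested on 3 cells and gives no direction.

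Il10 was found in few cells, and a small number of WT macrophage-like cells held most of its UMIs. Macrophage-like cells were at 139 CPM (128 to 151) in the WT and 61.1 CPM (50.7 to 72.9) in the KO library, a log2 ratio of -1.19 (-1.48 to -0.90), and gave 73.2% and 50.2% of its UMIs. Yet at 1000 UMIs the share of these cells with Il10 was 5.91% (4.02 to 8.32) and 5.04% (2.78 to 8.31), against 0.301% and 0.951% of DC-like cells. Positive macrophage-like cells carried 10.3 UMIs on average in the WT and 3.49 in the KO library. The libraries therefore differed in Il10 per positive cell, while a difference in the share of positive cells was not detectable.

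The highest 2 WT cells, both in cluster 7, had 102 and 61 Il10 UMIs among 17287 and 16190 UMIs in all. The highest KO cell had 16. The 10 highest cells held 54.7% of Il10 UMIs in the WT and 30.5% in the KO library, more than for any other of the 7 genes in the WT library, where Il6 followed with 32.3%. Without the 2 highest cells the ratio in macrophage-like cells was -0.74 (-1.04 to -0.45). Without the 10 highest of each library it was -0.37 (-0.81 to 0.06), from 41.9 and 32.5 CPM, so the macrophage-like difference rested on those cells. It also moved with the clustering, to -0.53 with 30 principal components, where the monocyte-like ratio was -2.31.

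**Figure D3:**
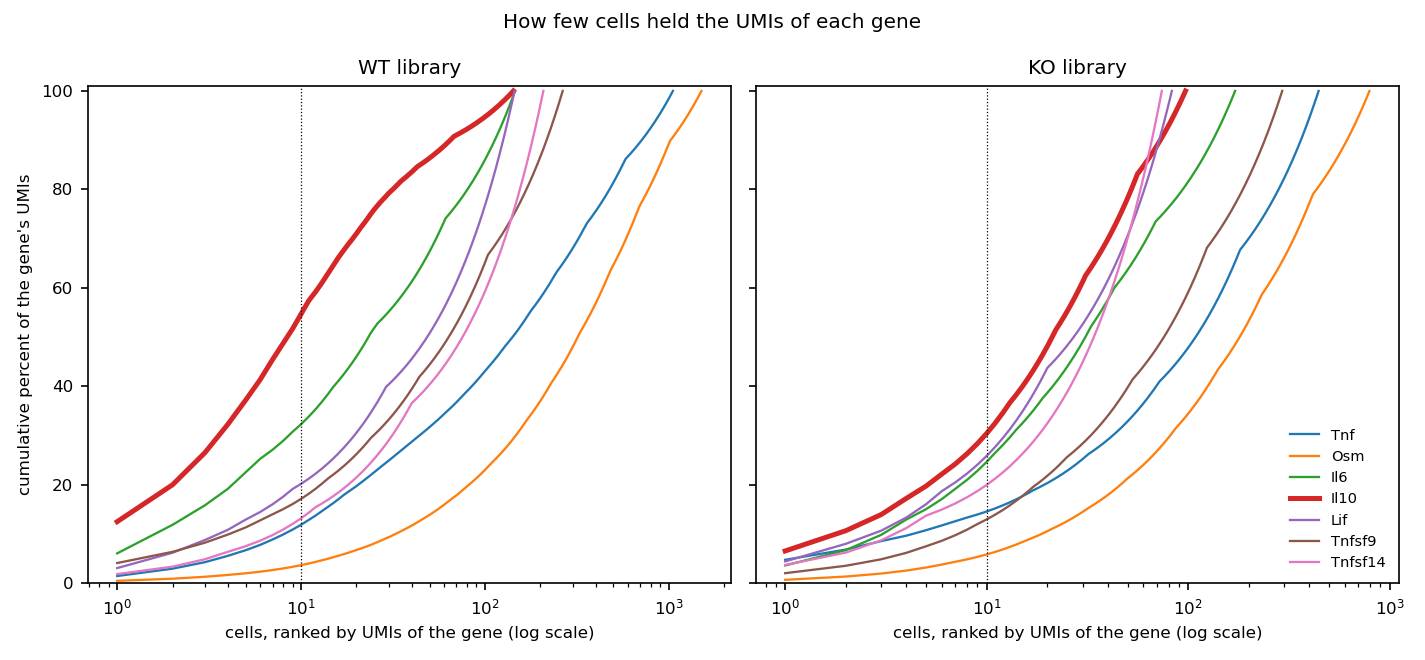
Cumulative percent of the UMIs of each cytokine gene (vertical axis) against cells ranked by their UMIs of that gene (horizontal axis, log scale) in the WT and KO libraries, with a dotted line at 10 cells. Il10 (thick line) reached 54.7% within 10 cells in the WT and 30.5% in the KO library, and Osm 3.7% and 5.88%.

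By cluster, Il10 was at 144 and 95.3 CPM in macrophage-like cluster 3 (-0.60, -0.93 to -0.28) and at 134 and 17.2 CPM in cluster 7 (-2.97, -3.82 to -2.22). Cluster 7 was marked by Igf1, Cx3cr1 and Mfge8. Without the 10 highest cells of each library the ratios were -0.34 (-0.82 to 0.12) and -0.88 (-2.11 to 0.19). Monocyte-like cells were at 42.7 and 19.5 CPM (-1.13, -1.75 to -0.55). Without the 1 WT cell there that was among the 10 highest of its library the ratio was -0.81 (-1.44 to -0.21). Neutrophil-marker and DC-like cells had little Il10 in either library, with 28 and 8 UMIs and 5 and 14 UMIs.

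T-cell-like cells showed the reverse, with 131 CPM (83.3 to 197) in the WT and 258 CPM (198 to 331) in the KO library, a log2 ratio of 0.97 (0.26 to 1.73). They gave 2.83% of WT and 25.5% of KO Il10 UMIs. Without their 3 cells that were among the 10 highest of the KO library the ratio was 0.60 (-0.15 to 1.39). A split by Foxp3, the regulatory T-cell factor, was made after the values were seen. In the KO library 17 of 47 T-cell-like cells with a Foxp3 UMI had an Il10 UMI, against 7 of 75 without, or 406 CPM (296 to 544) against 131 CPM (76.4 to 210). In the WT library the counts were 6 of 28 and 5 of 39, or 169 CPM (92.3 to 283) and 97.6 CPM (44.6 to 185). These counts of cells were taken at full depth. Cells with Foxp3 were deeper, with medians of 2448 against 1813 UMIs in the WT and 1769 against 1456 UMIs in the KO library. The part of depth in the split was not tested.

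Whether the genes were found in the same cells was examined at 1000 UMIs per cell in 4202 cells, against the count that the product of the single shares gives within each library and cluster. Tnf and Osm, the most widely detected genes, shared 296 cells where the product gave 276.4, a ratio of 1.07 (0.95 to 1.20). This was 43.6% of cells with Tnf and 25.9% of cells with Osm. Tnf and Il6 shared 16 cells against 7.05 (2.27, 1.30 to 3.69), and Tnf and Tnfsf9 shared 22 against 12 (1.83, 1.15 to 2.77). The Tnf and Il6 excess came from 13 WT cells against 5.12, and in the KO library 3 cells stood against 1.92. Neither excess held under every setting. With a mitochondrial limit of 10% the ratios were 1.28 (0.70 to 2.15) and 1.46 (0.97 to 2.11). Without the 3 WT and 7 KO cells that Scrublet called they were 1.68 (0.87 to 2.93) and 1.51 (0.87 to 2.46). Both settings also remade the clusters and redrew the random thinning, and the part of each was not tested. Of the 21 pairs, 3 had intervals above 1 and none below, and 8 pairs had fewer than 5 cells. The share of other gene pairs above 1 was not computed, so this count is not a result about the 7 genes. The third was Lif and Tnfsf9, with 7 cells against 2.79 (2.51, 1.01 to 5.17). Osm showed no excess with any other of the genes, from 0.84 (0.54 to 1.24) with Tnfsf9 to 1.33 (0.90 to 1.89) with Lif.

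The same count was made with 5 inflammatory genes, Il1b and Il1a (interleukin-1), Ptgs2 (cyclooxygenase-2), Cxcl2 (a neutrophil chemokine) and Nlrp3 (an inflammasome sensor). Of 35 pairs, 8 had intervals above 1 and none below. The share of other gene pairs above 1 was not computed, and the part of unlike cells within a cluster or of doublets was not tested. These 35 pairs were not recomputed under other settings. Tnf was found with Il1a in 248 cells against 195.3 (1.27, 1.12 to 1.44) and with Il1b in 547 against 491 (1.11, 1.02 to 1.21). Il6 was found with Ptgs2 in 27 cells against 17.4 (1.55, 1.02 to 2.26), Tnfsf9 with Ptgs2 in 35 against 23.1 (1.51, 1.05 to 2.11) and Il10 with Ptgs2 in 33 against 22.5 (1.47, 1.01 to 2.06). By library, 3 of the 35 pairs had intervals above 1 in the WT and none in the KO library. The KO library had fewer cells at this depth, 1692 against 2510, and fewer positive cells for Tnf and Il10. Of these 3 pairs, Tnf and Il1a were at 1.28 in the WT and 1.24 (0.89 to 1.68) in the KO library. Il10 and Il1a were at 1.72 and 0.68 (0.18 to 1.73). Il10 and Ptgs2 shared 27 WT cells against 16.2 (1.67, 1.1 to 2.42) and 6 KO cells against 6.27 (0.96, 0.35 to 2.08). Osm stayed within counting error of the product for all 5. Over all cells 4 of these 5 genes were lower in the KO library by 2-fold or more, against 1.71% of 8470 genes. Their log2 ratios ran from -1.07 (Nlrp3) to -1.30 (Cxcl2), and Il1b was at -0.82. Standardised over clusters, the ratios of the 5 genes ran from -0.35 (Nlrp3) to -0.77 (Ptgs2), all short of 2-fold.

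**Figure D4:**
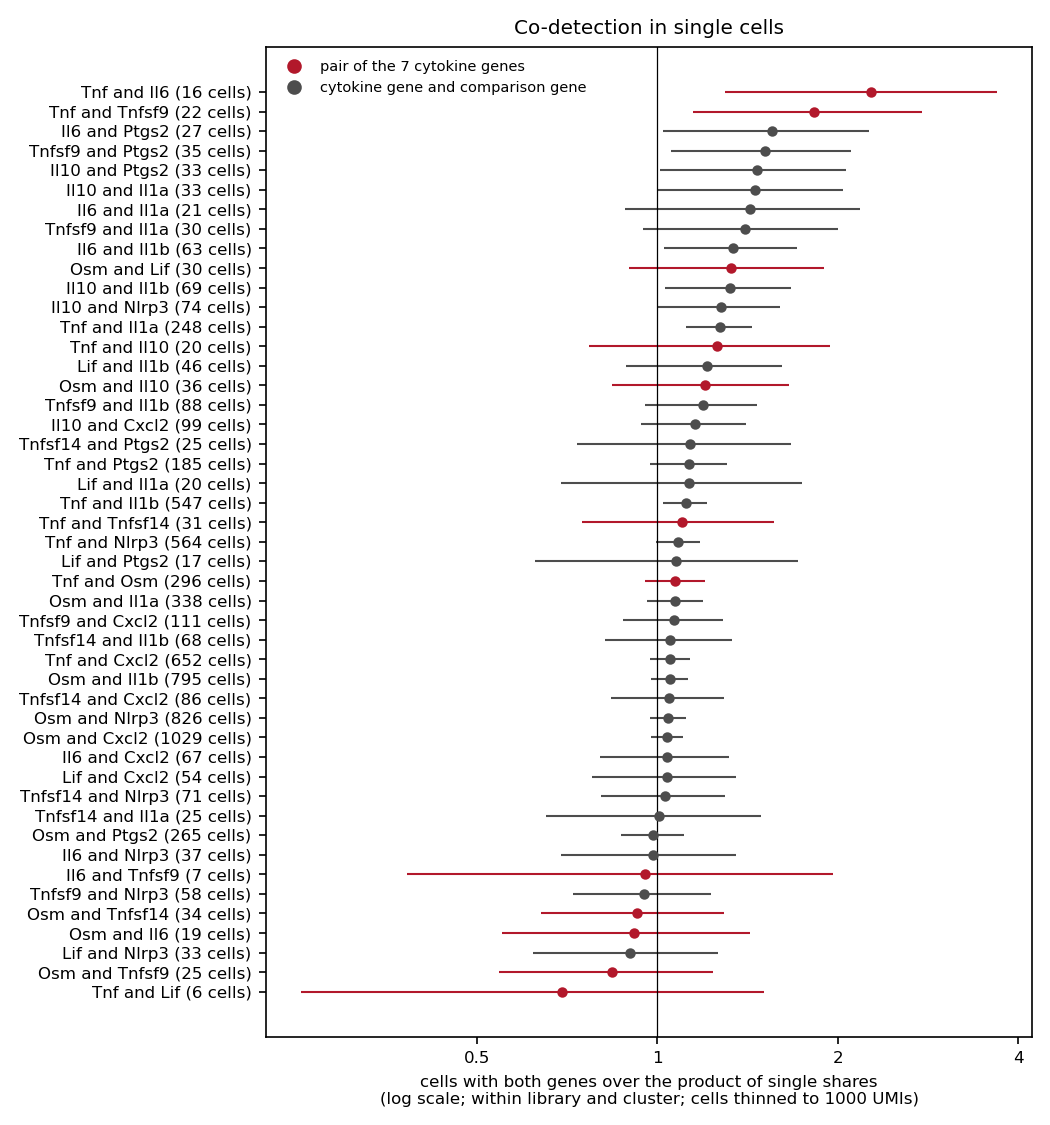
Cells with both genes of a pair over the count given by the product of single shares within library and cluster (horizontal axis, log scale), with exact Poisson 95% intervals, for pairs whose product was at least 5 cells. Tnf and Il6 stood highest at 2.27, followed by Tnf and Tnfsf9 at 1.83, while Tnf and Osm were at 1.07.

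Over the 22 combinations of library and cluster with at least 30 cells, the levels of Tnf, Osm and Tnfsf14 ran together, with Pearson r of 0.86 for Tnf and Osm, 0.83 for Tnf and Tnfsf14 and 0.83 for Osm and Tnfsf14. Il6 and Tnfsf9 also ran together (0.81), and Tnf ran against Tnfsf9 (-0.84) and Il6 (-0.65). These values describe log2(CPM + 1) over points that share libraries and depth. Mast-cell-like cluster 14, with the highest Il6 and no Tnfsf9 UMI, had fewer than 30 cells per library and is not among the points. The genes with the most similar pattern were Ccl3 (0.96), Csf1 and Ccrl2 for Tnf, Arid5b (0.97), Arg2 and Ier3 for Osm, and Slc23a2 (0.94), Nfam1 and Haus8 for Tnfsf14. They were B3gnt5 (0.87), Plekhg2 and Tmem8 for Il6, Tmem39a (0.92), Trafd1 and Cd40 for Tnfsf9, Ifi27 (0.82), Dok2 and Maf for Il10, and Plcb1 (0.73), Bcl10 and Cxcl3 for Lif.

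The 2-fold rule was also applied within cell classes. In clusters 1 and 4, 3 of the 7 genes were counted deeply enough, and none was past 2-fold, where 1.85% of 2162 genes were lower and 2.45% higher. In monocyte-like cells 1 of 6 (Il10) was lower, against 0.829% lower and 0.276% higher of 4706 genes. In macrophage-like cells 1 of 4 (Il10) was lower, against 0.587% lower and 0.224% higher of 5797 genes, and in DC-like cells 1 of 4 (Tnf), against 0.681% lower and 0.475% higher of 4846 genes. Without the 10 cells of each library with the most UMIs of the gene, none of these 3 ratios was past 2-fold. Those cells were picked by the gene itself over the whole library. For Tnf in DC-like and Il10 in monocyte-like cells, 1 WT cell and no KO cell was left out, which could only shrink the difference. For Il10 in macrophage-like cells 16 cells, of both libraries, were left out.

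Receptors, other ligands and signal genes of these pathways were also counted. Of 65 listed genes, 49 had at least 100 UMIs over all cells, and 1 was past 2-fold, the lymphotoxin gene Ltb, at 7.0 and 14.7 CPM (1.07, 0.65 to 1.49). Of all 8470 genes 1.71% were lower and 2.42% higher by this rule, with a median log2 ratio of 0.13. Among receptor chains, Tnfrsf1a was at 170 and 164 CPM (-0.05, -0.15 to 0.06), Tnfrsf1b at 640 and 488 CPM (-0.39, -0.45 to -0.33) and Tnfrsf9, the receptor of Tnfsf9, at 156 and 251 CPM (0.69, 0.59 to 0.78). Il6st, the shared chain, was at 46.0 and 79.8 CPM (0.79, 0.63 to 0.96) and Il10ra at 98.9 and 69.7 CPM (-0.50, -0.65 to -0.36). None of the 9 receptor genes tested was past 2-fold, and the list's median log2 ratio was -0.17. These ratios over all cells did not hold within every class. Tnfrsf1b was higher in clusters 1 and 4, at 1520.5 and 1716 CPM (0.17, 0.06 to 0.29), and Il6st was at 49.5 and 49.2 CPM in monocyte-like cells (-0.01, -0.43 to 0.40). Tnfrsf9 was higher in monocyte-like (0.58, 0.38 to 0.78) and DC-like cells (0.43, 0.24 to 0.63) and lower in macrophage-like cells (-0.30, -0.50 to -0.10). The receptor Osmr had 1 WT and 0 KO UMIs, and Tnfrsf14 had 6 and 5.

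Of 14 other ligands of the TNF superfamily 5 were tested (median -0.16), and of 8 other ligands of the Il6 and Il10 families 3 were tested (median -0.36), among them Clcf1 at 39.8 and 31.0 CPM. Adam17, which releases Tnf, was at 231 and 208 CPM (-0.15, -0.24 to -0.06) over all cells but at 268 and 303 CPM in monocyte-like cells (0.18, 0.01 to 0.35). Rhbdf2, which brings Adam17 to the cell surface, was at 96.1 and 60.3 CPM over all cells (-0.67, -0.83 to -0.52), while its intervals included 0 in clusters 1 and 4, in monocyte-like and in macrophage-like cells. Of 8 genes for decay of cytokine transcripts none was past 2-fold (median 0.02), with Zfp36, which degrades Tnf mRNA, at 911 and 904 CPM and Zc3h12a at 160 and 113 CPM. Of 11 JAK-STAT genes none was past 2-fold (median 0.31), with Stat3 at 308 and 382 CPM over all cells (but lower in DC-like cells, -0.26, -0.36 to -0.16, and in macrophage-like cells, -0.42, -0.61 to -0.23) and its target Socs3 at 193 and 139 CPM. The 9 TNF receptor adaptors had a median of -0.13, and Birc2 was the highest of them in ratio at 0.76. Within clusters 1 and 4 Socs1, an inhibitor of JAK-STAT signals, was the only listed gene past 2-fold of 23 tested, at 81.2 and 168 CPM (1.05, 0.63 to 1.45), and in monocyte-like, macrophage-like and DC-like cells none of 36, 38 and 36 was. The shares of all genes past 2-fold in these classes are given above.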

How the data were processed

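Per the labels, CD11b+ and CD11c+ cells of colonic polyps were sorted and 1 single-cell library was sequenced per genotype. Their protocol names a SeekOne MM microwell kit and their description 10x Genomics, and which made the matrices is not settled here. The submitters' processing notes name Cell Ranger 2.1.1 and mm10. The deposited matrices hold UMI counts per gene and barcode that the authors had made from the reads and restricted to 3467 WT and 3080 KO barcodes, with no normalization. Following the study's methods, a cell was kept if it had 200 to 4000 genes and no more than 5% of UMIs from mitochondrial genes, which left out 771 and 1081 barcodes.

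Cells were clustered in Seurat 5.3.0 (2000 variable features without the cytokine, pathway, comparison and sex-linked genes, 20 principal components, Louvain resolution 0.8) and classes were named from marker lists. The cytokine genes, gene lists and comparisons were chosen with earlier results of these data known. CPM divided a gene's summed UMIs by the cells' total. Intervals are exact Poisson (CPM), Clopper-Pearson (shares) and conditional binomial (ratios) 95% intervals in scipy 1.17.1 and cover counting error only. Shares and co-detection used cells thinned to 1000 UMIs, leaving out 186 WT and 307 KO shallower cells. The split by Foxp3 used cells at full depth. The 2-fold rule used genes with at least 100 UMIs and a pseudocount of 0.5 UMIs. The genes named are the 7 cytokines, the 5 comparison genes, the pathway lists, class markers and, per cytokine, the 3 genes of most similar pattern. Alternatives covered filters, thinning, scaling (TMM in edgeR 4.0.16), clustering, class rules, Scrublet removal and thresholds. Scripts were tested on simulated data. Removing the top 5% of Scrublet scores, leaving out the 10 cells with the most UMIs of a gene, the finer split of cluster 4 and the split by Foxp3 were chosen after seeing the data. The 10 cells were picked by the gene itself over each whole library, so within a class the cells left out can all come from a single library.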

Additional observations from a re-analysis of the deposited data

Results flagged for a closer look

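Osm differed in direction between clusters. Its log2 ratio of KO to WT was 1.54 in cluster 4, while it was -0.53 in cluster 0, -0.27 in cluster 1 and -0.22 in cluster 2, each with an interval that left out 0. Il10 was higher in the KO library in T-cell-like cluster 10, at 0.97, and lower in monocyte-like clusters 0 and 2, at -0.80 and -1.62, and in macrophage-like clusters 3 and 7, at -0.60 and -2.97. With 1 library per genotype these differences between clusters were not tested. For cluster 1 the Osm ratio without the 10 highest cells of each library was -0.23 (-0.50 to 0.03), and all cells left out there were WT. For Il10 the same left -0.12 in cluster 0, -0.34 in cluster 3, -0.88 in cluster 7 and 0.60 in cluster 10, all with intervals that included 0. The cells left out were WT only in cluster 0 and KO only in cluster 10. Cluster 2 stayed at -1.62, since none of its cells was left out.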

How the results depend on the processing

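No paired analysis was possible because each genotype has 1 library. Of 557 values recomputed under alternatives, 20 of headline results and 74 of other results moved. Moved means outside the main interval or, for counts, past a set factor. No log2 ratio whose main interval left out 0 changed sign. The other values could not fail that check on sign. The mean over cells of per-cell CPM gave all-cell log2 ratios of -1.12 for Tnf, -0.26 for Osm, 0.53 for Il6, -0.099 for Il10, -0.50 for Lif and -0.64 for Tnfsf14, and 0.25 for Osm in clusters 1 and 4 and -0.77 for Il10 in macrophage-like cells. TMM scaling, which moved all genes by 0.17 over all cells, gave -1.53 for Tnf and -0.89 for Osm. A mitochondrial limit of 10% gave -0.88 for Osm. A limit of 500 to 6000 genes gave -0.83 for Osm over all cells, -0.15 for Osm in clusters 1 and 4 and -0.87 for Il10 in macrophage-like cells. Classes from marker lists per cell gave -0.59 for Tnf in clusters with neutrophil markers. For Il10 in macrophage-like cells 30 principal components gave -0.53, and leaving out the 10 highest cells gave -0.37, and -0.43 over all cells. The listed pathway genes past 2-fold numbered 3 with at least 20 UMIs (adding Tnfsf8 and Tnfsf11, both higher) and 3 with the 10% limit. The standardised ratios of Tnf ranged from -0.77 to -0.69 and of Il10 from -0.84 to -0.77 over the other clusterings and Scrublet removals.

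Depth limits Lif and Tnfsf14, where most positive cells had 1 UMI, and every value from clusters 11 to 14, which hold 5 to 21 cells per library. Cells of 1 library are not replicates, and genotype, pool and library preparation cannot be told apart.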

Other observations

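The barcodes outside the filter on genes and mitochondrial UMIs, 771 WT and 1081 KO, also held transcripts of the 7 genes. They carried 8.35% of all WT and 21.7% of all KO Tnf UMIs, and 26.6% and 39.7% of Tnfsf9 UMIs. Among them Tnf was at 86.7 CPM in the WT and 53.2 CPM in the KO library, Il6 at 22.6 and 44.5 CPM and Il10 at 21.5 and 14.6 CPM.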
